A study of Mus musculus with 17 samples.

Results

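Expression of 10 chemokine genes was followed in RNA sequencing libraries of whole mouse kidney. The genes were Cxcl10, Cxcl9, Cxcl1, Ccl2, Ccl5, Cxcl16, Cx3cl1, Cxcl12, Cxcl14 and Ccl28, chosen by name with earlier results of these data known. Each matched 1 of the 42794 complete gene lines of the table. The 17 libraries form 3 groups, with 4 labelled control (genotype WT), 6 labelled Ctr shRNA and 7 labelled Gcgr shRNA, for a hairpin that was to silence Gcgr, the glucagon receptor gene, in proximal tubule. The titles of both shRNA groups carry DKD and the series is on diabetic kidney disease. Ctr shRNA is the genotype label of a group whose titles say Vehicle, which leaves it uncertain whether a control hairpin was given. The sources used here do not give disease induction, hairpin delivery, strain, age or sex. Control libraries differ from both shRNA groups in the disease label and in any hairpin or vehicle together, which cannot be told apart. Libraries are not tied to separate animals by the labels, so a p-value reflects only how these samples spread.

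Chemokines are small secreted proteins, or membrane proteins that can be shed, which direct the movement of leukocytes through G protein-coupled receptors. Inflammatory chemokines are transcribed on demand downstream of interferons, tumour necrosis factor and interleukin 1, through STAT, IRF and NF-kappaB factors, and homeostatic chemokines are made steadily by epithelium, endothelium and stroma. In the injured kidney, tubule cells are a known source of several of them, and CCL2 and CXCL10 are used as urinary markers of renal inflammation.

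Each library held 13997657 to 17107876 reads recovered from the values. FPKM, a level corrected for gene length and library size, is used throughout, and 12183 to 12919 genes reached an FPKM of 1. Summed FPKM of 6 proximal tubule markers was 1382 to 2200. The library Ctr shRNA 20 lay apart on both leading principal components (20.97% and 15.17% of the variance) and held transcripts of fat (summed FPKM of 7 markers 691, against at most 47.5 elsewhere) and of urothelium (6 markers, 189 against at most 10.7). Ctr shRNA 4 stood apart on the second component (-25.97, the next lowest being -10.99) and was second highest on the first (15.88). Between the shRNA groups Gcgr went against the label of its hairpin. Control had 20.8 ± 2.42 FPKM (SD, n = 4), Ctr shRNA 9.74 ± 2.14 (n = 6) and the Gcgr shRNA-labelled libraries 13.02 ± 1.70 (n = 7). Its log2(FPKM + 1) was thus 0.40 higher in the Gcgr shRNA-labelled libraries than in Ctr shRNA (exact two-sided permutation p = 0.00641 over 1716 splits), and 1.04 lower in Ctr shRNA than in control (exact permutation p = 0.00476, the smallest possible with 210 splits). Against control, the Gcgr shRNA-labelled libraries differed by -0.64 (exact permutation p = 0.00303, the smallest possible with 330 splits). Gm11789 overlaps Gcgr on the opposite strand, at 2.77, 1.95 and 1.82 FPKM in control, Ctr shRNA and Gcgr shRNA.

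Of the 10 chemokine genes, 4 were higher in Ctr shRNA than in control at a limma adjusted p under 0.05, and none was lower. These were Cxcl10, Cxcl16, Ccl5 and Cxcl1. In that comparison 7.49% of all 13279 tested genes passed, 3.58% as higher and 3.91% as lower. The same 4 genes were higher in the Gcgr shRNA-labelled libraries than in control, where 2.02% of genes passed, 1.42% as higher and 0.595% as lower. In the latter comparison 189 genes passed as higher and 79 as lower, a split that became 133 and 113 when libraries were rescaled to the same total. Both comparisons share the 4 control libraries. The 10 genes were chosen with earlier results of these data known, so their counts and medians are a description. Cxcl1, Cxcl9 and Ccl2 had no control library at an FPKM of 1, Ccl5 had 1 and Cxcl10 had 2. These genes passed the filter through the shRNA groups. Of the 4 called genes, Cxcl16 alone had all 4 control libraries at an FPKM of 1. The median difference in log2(FPKM + 1) over the 10 genes was 0.68 for Ctr shRNA and 0.79 for the Gcgr shRNA-labelled libraries, beside 0.01 and -0.005 over all genes tested. At an unadjusted p under 0.05 the counts were 7 of the 10 in Ctr shRNA (23.4% of all genes), with Ccl2, Cxcl9 and Cxcl14 besides the called genes, and 8 in the Gcgr shRNA-labelled libraries (16.2% of all genes), with Ccl28 in addition. In whole tissue, fewer cells of a type and less RNA per cell cannot be told apart.

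Between the Gcgr shRNA-labelled libraries and Ctr shRNA, none of the 10 genes passed in limma or in limma voom on recovered reads, and none reached an unadjusted p of 0.05. Among all 13279 genes 0.0% passed in that comparison, in limma and in voom, and 7.32% (972) had an unadjusted p under 0.05. The median difference of the 10 genes was 0.02, against -0.004 over all genes. The 95% intervals reached furthest from 0 for Ccl28 (-0.08 to 0.93 on the log2 scale), Cxcl1 (-0.39 to 0.70) and Cxcl14 (-0.64 to 0.37), so differences of those sizes lie within them.

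**Figure D1:**
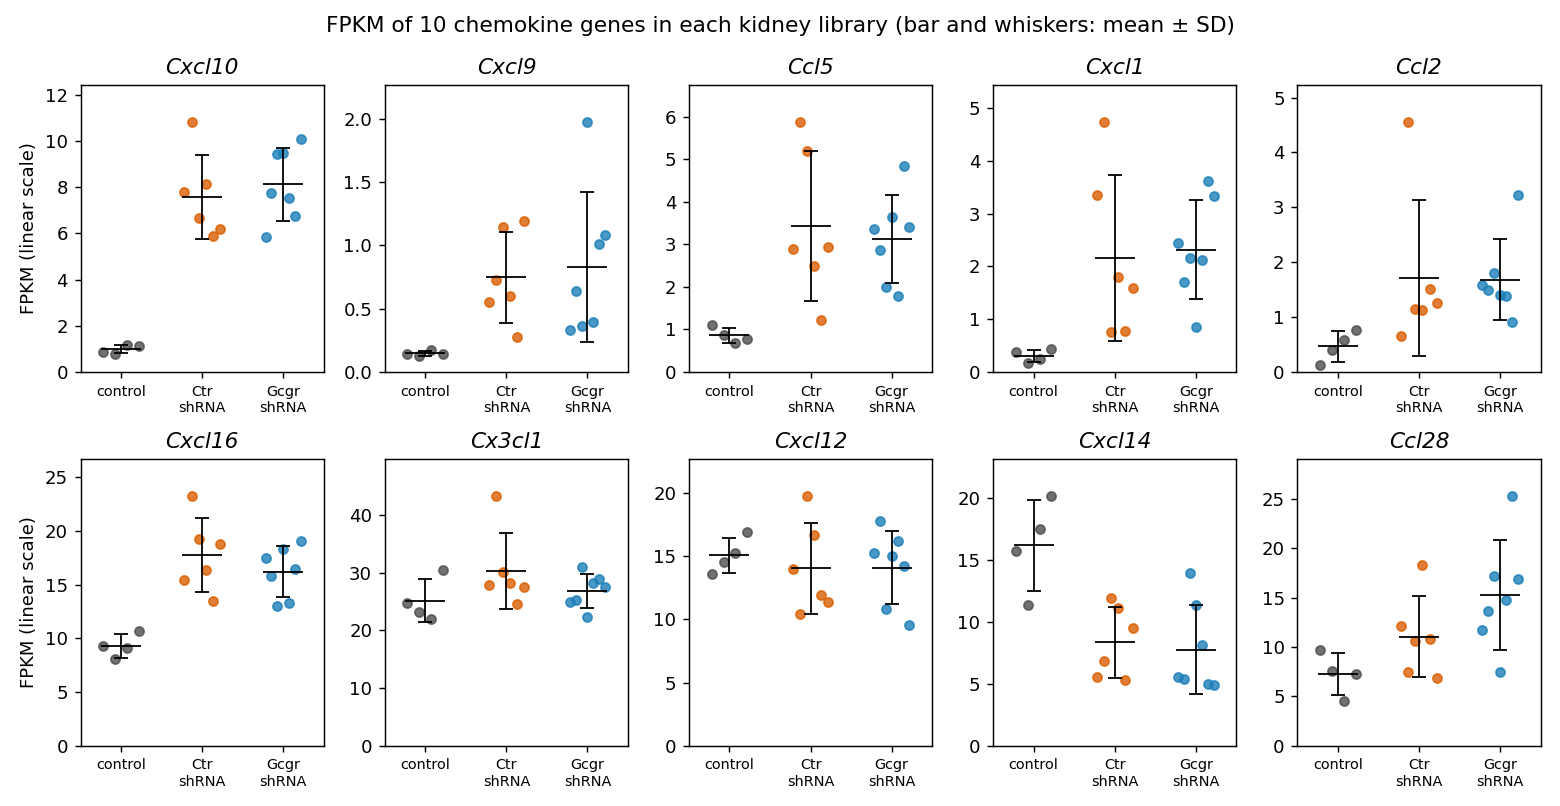
FPKM (linear axis from 0, with its own range for each gene) of the 10 chemokine genes, with 1 point per library, a horizontal bar at the group mean and whiskers of 1 SD for control (n = 4), Ctr shRNA (n = 6) and Gcgr shRNA (n = 7). All points of both shRNA groups lie above all control points for Cxcl10, Cxcl9, Ccl5, Cxcl1 and Cxcl16, and the shRNA groups overlap each other for every gene.

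**Figure D2:**
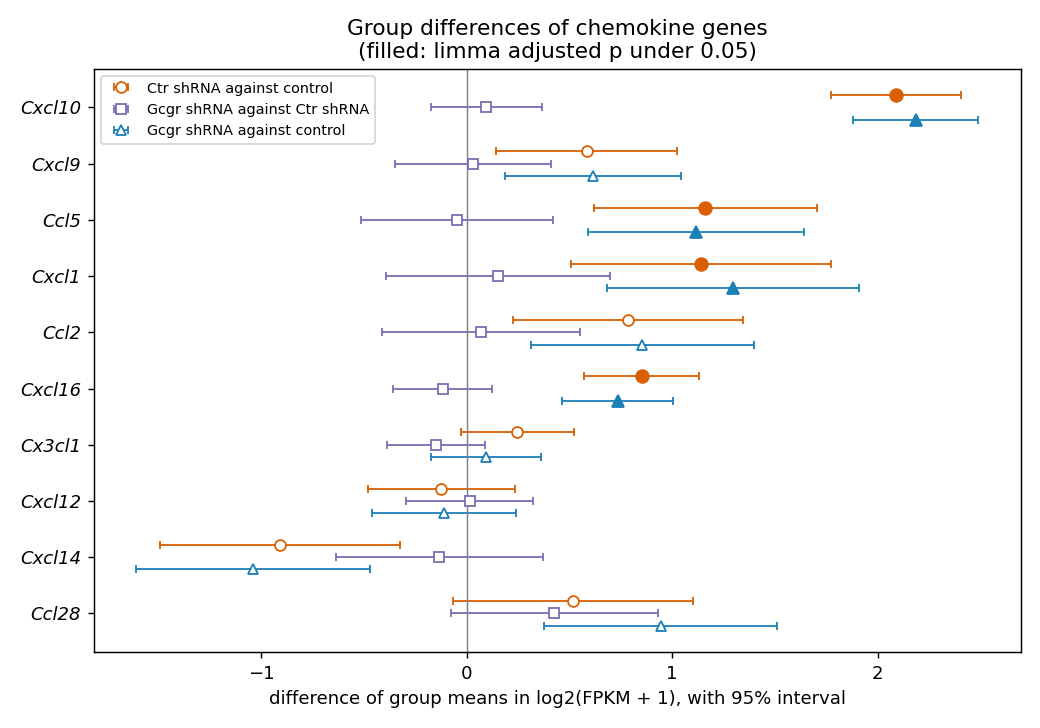
Difference of group means in log2(FPKM + 1) for each gene (horizontal axis) with its 95% interval from limma, in 3 comparisons; filled symbols have an adjusted p under 0.05. The filled symbols are those of Cxcl10, Ccl5, Cxcl1 and Cxcl16 in both comparisons with control, and no symbol of Gcgr shRNA against Ctr shRNA is filled.

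Levels in control kidney fell into a high and a low set. Cx3cl1 led with 25.2 ± 3.76 FPKM (SD, n = 4), followed by Cxcl14 (16.2 ± 3.68), Cxcl12 (15.1 ± 1.38), Cxcl16 (9.31 ± 1.09) and Ccl28 (7.26 ± 2.12). Neighbours in this order overlapped in range between Cxcl14 and Cxcl12 and between Cxcl16 and Ccl28. Below a gap without overlap came Cxcl10 (0.987 ± 0.179), Ccl5 (0.858 ± 0.179), Ccl2 (0.465 ± 0.274), Cxcl1 (0.306 ± 0.119) and Cxcl9 (0.147 ± 0.0201), each overlapping the next. In the table, gene length is the union of all annotated exons, which is 1.97 times the longest coding mRNA for Cxcl1, 1.81 times for Ccl5 and 1.66 times for Cxcl10, but 1.00 times for Cxcl14. Per longest mRNA, Cxcl12 (21.9) stood above Cxcl14 (16.2) in control, with overlapping ranges, and the high and low sets stayed apart. In Ctr shRNA, Cxcl10 on the scale of the file (7.57 FPKM) lay next to Cxcl14 (8.37) with overlapping ranges, so this gene had left the low set, while Ccl5, Cxcl1, Ccl2 and Cxcl9 kept the last 4 places in all 3 groups.

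Cxcl10 and Cxcl9 encode ligands of CXCR3, a receptor of activated T and natural killer cells, and are classical targets of interferon gamma. Cxcl10 (ENSMUSG00000034855) lies on GRCm38 chromosome 5, 92346638 to 92348889, minus strand, and Cxcl9 (ENSMUSG00000029417) 18.6 kb away on the same strand at 92321347 to 92328079. Cxcl10 measured 0.877, 0.795, 1.17 and 1.11 FPKM in the control libraries 37, 38, 39 and 41. It ranged from 5.88 to 10.8 (median 7.22) in Ctr shRNA and from 5.85 to 10.1 (median 7.75) in the Gcgr shRNA-labelled libraries. Every library of both shRNA groups thus lay above the highest control, and the shRNA groups covered the same range. The mean rose 7.67-fold in FPKM between control and Ctr shRNA. On the log2(FPKM + 1) scale, which understates changes of low genes, the rise was 2.09 ± 0.15 (SE, limma adjusted p = 2.64e-07) in Ctr shRNA and 2.18 ± 0.15 (adjusted p = 1.47e-07) in the Gcgr shRNA-labelled libraries. It passed in all 27 alternative settings of both comparisons. Between the shRNA groups the difference was 0.10, with a 95% interval of -0.18 to 0.37.

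Cxcl9 was the lowest of the 10 genes and rested on 27 reads over all control libraries, 232 in Ctr shRNA and 278 in the Gcgr shRNA-labelled libraries. Control values were 0.140, 0.127, 0.175 and 0.144 FPKM. Ctr shRNA values ran from 0.273 to 1.20 (median 0.665), and those of the Gcgr shRNA-labelled libraries from 0.328 to 1.97 (median 0.638). No shRNA library reached down to the control range, and library Gcgr shRNA 31 held the highest value. On the log2(FPKM + 1) scale the differences from control were 0.58 ± 0.21 (limma adjusted p = 0.0981) and 0.62 ± 0.20 (adjusted p = 0.139). With a pseudocount of 0.1 in place of 1, the difference of Ctr shRNA from control was 1.67 with an adjusted p of 0.0346, and without Gcgr shRNA 31 the adjusted p was 0.0483, so the call depends on these choices. No control library had an FPKM of 1 for Cxcl9, Cxcl1 or Ccl2, while 1 had it for Ccl5 and 2 for Cxcl10, so these genes passed the filter on low values through the shRNA groups.

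The 250 bases before the RefSeq start of both genes are shown because the neighbours differ in the motifs that a search of both strands found (GRCm38.p6, from RefSeq, positions counted back from -1 at the base before the start). Capitals in Cxcl10, chr5:92348890-92349139, minus strand, mark, from left to right, an interferon-stimulated response element (ISRE, searched as GAAA, then NN, then GAAA) at -213 to -204, a pair of NF-kappaB consensus matches at -159 to -150 and -103 to -94, and an AP1 motif (TGANTCA) at -74 to -68. Capitals in Cxcl9, chr5:92328080-92328329, minus strand, mark the letters TATAAA at -195 to -190.
Cxcl10: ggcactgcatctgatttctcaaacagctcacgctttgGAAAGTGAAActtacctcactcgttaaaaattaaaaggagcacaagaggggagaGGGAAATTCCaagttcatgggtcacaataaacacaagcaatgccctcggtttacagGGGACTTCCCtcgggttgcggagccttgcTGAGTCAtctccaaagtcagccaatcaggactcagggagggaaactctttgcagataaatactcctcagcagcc
Cxcl9: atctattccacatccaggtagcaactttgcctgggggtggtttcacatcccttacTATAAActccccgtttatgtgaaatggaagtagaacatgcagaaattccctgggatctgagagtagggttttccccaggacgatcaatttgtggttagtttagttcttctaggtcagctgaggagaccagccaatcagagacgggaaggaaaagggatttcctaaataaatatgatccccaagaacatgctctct
Of 32851 promoters in the table searched over the same 250 bases, 3.9% held the NF-kappaB consensus, 2.98% the ISRE, 6.75% the AP1 motif and 12.4% the letters TATAAA. A match is a description of the sequence and not a binding site. Only short consensus strings were searched, so the lack of an interferon match in Cxcl9 does not show that such an element is absent.

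Cxcl11, the third CXCR3 ligand, lies 10.7 kb from Cxcl10 and stayed low, at 0.151 ± 0.0713, 0.205 ± 0.0870 and 0.239 ± 0.123 FPKM in control, Ctr shRNA and Gcgr shRNA (SD), with overlapping ranges. Art3 lies over Cxcl10 on the opposite strand, at 0.331, 0.565 and 0.358 FPKM in the same order. Strand use in counting is unstated in the sources used here, and without it reads of Art3 and Cxcl10 cannot be told apart where they overlap. Art3 was at 0.251 to 0.427 FPKM in control, where Cxcl10 was at 0.795 to 1.17, at 0.197 to 1.53 in Ctr shRNA, and at 0.302 to 0.416 in the Gcgr shRNA-labelled libraries.

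Cxcl1 encodes a ligand of CXCR2 that draws neutrophils and is an early product of NF-kappaB signalling. The gene (ENSMUSG00000029380) lies on chromosome 5, 90891241 to 90893115, plus strand. Control values were 0.376, 0.171, 0.246 and 0.432 FPKM, from 35 reads in all. Ctr shRNA ranged from 0.761 to 4.73 (median 1.70), and the Gcgr shRNA-labelled libraries from 0.851 to 3.62 (median 2.15). The lowest library of either shRNA group was above the highest control, but within Ctr shRNA the values spread 6.21-fold, with library 4 at the top and libraries 6 and 19 at the bottom. Mean FPKM was 7.08-fold higher in Ctr shRNA than in control. On the log2(FPKM + 1) scale the rise was 1.14 ± 0.30 (limma adjusted p = 0.0281) and in the Gcgr shRNA-labelled libraries 1.29 ± 0.29 (adjusted p = 0.0265). Each call passed in 19 of 27 alternatives. It was lost for Ctr shRNA without control 37, 38 or 39 (adjusted p = 0.0677, 0.0875 and 0.0821), without Ctr shRNA 1 or 4 (0.0541 and 0.0519), with no low-value filter (0.0757), and in a fit of the 2 groups alone (0.0547). For the Gcgr shRNA-labelled libraries it was lost without any 1 control library (adjusted p from 0.0526 to 0.102), without Gcgr shRNA 13 or 35 (0.0541 and 0.0565), without a filter (0.0774), and with limma voom (0.0548).

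The promoter of Cxcl1 is shown because NF-kappaB consensus matches overlap in it on both strands, at -71 to -62 and -70 to -61 (capitals). It is given as 246 bases, chr5:90890995-90891240, plus strand, up to the annotated first exon.
Cxcl1: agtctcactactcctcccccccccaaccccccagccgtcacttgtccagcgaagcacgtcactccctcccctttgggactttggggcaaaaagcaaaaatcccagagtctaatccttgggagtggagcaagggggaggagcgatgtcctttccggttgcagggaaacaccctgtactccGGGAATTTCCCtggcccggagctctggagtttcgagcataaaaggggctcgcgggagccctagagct
No match to the ISRE, the AP1 motif or TATAAA was found in this window.

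Ccl2, the main attractant of CCR2-bearing monocytes, and Ccl5, an attractant of T cells and macrophages, lie on chromosome 11 (Ccl2, ENSMUSG00000035385, 82035571 to 82037453, plus strand; Ccl5, ENSMUSG00000035042, 83525778 to 83530518, minus strand). Ccl5 measured 1.10, 0.866, 0.686 and 0.778 FPKM in the control libraries. It ranged from 1.21 to 5.86 (median 2.91) in Ctr shRNA and from 1.79 to 4.84 (median 3.35) in the Gcgr shRNA-labelled libraries. The groups did not overlap with control, although library Ctr shRNA 19 (1.21) lay just above the highest control (1.10). The rise in log2(FPKM + 1) was 1.16 ± 0.26 (limma adjusted p = 0.0113) in Ctr shRNA, 4-fold in mean FPKM, and passed in all 27 alternatives. In the Gcgr shRNA-labelled libraries it was 1.12 ± 0.25 (adjusted p = 0.0259), and this call was lost without any 1 control library (adjusted p from 0.0630 to 0.107), without Gcgr shRNA 13 or 35 (0.0541 and 0.0518), with no low-value filter (0.0767), with limma voom (0.0665), and without both Ctr shRNA 20 and Gcgr shRNA 31 (0.0504).

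Ccl2, overlapped on the opposite strand by Gm17268 (level not given here), measured 0.124, 0.393, 0.579 and 0.766 FPKM in control, from 33 reads. Ctr shRNA ranged from 0.659 to 4.55 (median 1.20) and the Gcgr shRNA-labelled libraries from 0.914 to 3.22 (median 1.49). Library Ctr shRNA 1 lay within the control range, and Ctr shRNA 4 (4.55) stood well above the next library of its group (1.51). The differences from control, 0.78 ± 0.27 (limma adjusted p = 0.0809) and 0.85 ± 0.26 (adjusted p = 0.105), were not called. Without Ctr shRNA 4, a library outside the comparison that shares the estimate of spread, the difference between Gcgr shRNA and control had an adjusted p of 0.0180. With a pseudocount of 0.1 both comparisons with control passed (0.0371 and 0.0422). Its neighbour Ccl7, 8.26 kb away and another CCR2 ligand, was below the filter, with 5 control reads, 71 in Ctr shRNA and 55 in the Gcgr shRNA-labelled libraries. Fitted without a filter, Ccl7 was higher in Ctr shRNA (0.892 ± 0.348 against 0.101 ± 0.0748 FPKM, limma adjusted p = 0.0250) and had an adjusted p of 0.193 in Gcgr shRNA against control (0.626 ± 0.307 FPKM); it was singled out after its values were seen.

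Cxcl16 and Cx3cl1 encode chemokines made as membrane proteins with a mucin stalk, which act as adhesion molecules until proteases of the ADAM family shed them. Cxcl16 (ENSMUSG00000018920, chromosome 11, 70453983 to 70459984, minus strand) binds CXCR6 and also acts as a scavenger receptor for oxidised lipoprotein. It measured 9.27, 8.09, 9.13 and 10.7 FPKM in control. Ctr shRNA ranged from 13.5 to 23.3 (median 17.6) and the Gcgr shRNA-labelled libraries from 13.1 to 19.1 (median 16.4). All shRNA libraries were above all controls. The rise was 0.85 ± 0.13 (limma adjusted p = 0.00108) and 0.74 ± 0.13 (adjusted p = 0.00555) on the log2(FPKM + 1) scale, and passed in all 27 alternatives of both comparisons. Zmynd15 overlaps the gene on the opposite strand, at 1.86, 2.48 and 2.56 FPKM in control, Ctr shRNA and Gcgr shRNA.

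Cx3cl1 (ENSMUSG00000031778, chromosome 8, 94772009 to 94782427, plus strand), the ligand of CX3CR1 on monocytes and resident macrophages, was the most abundant of the 10 genes in every group. It measured 24.8, 23.3, 22 and 30.5 FPKM in control, 24.6 to 43.3 in Ctr shRNA (median 28.1) and 22.3 to 31.03 in the Gcgr shRNA-labelled libraries (median 27.6). The 3 ranges overlapped, and only library Ctr shRNA 4 stood clear of the others. The differences from control were 0.25 ± 0.13 (limma adjusted p = 0.269) and 0.10 ± 0.13 (adjusted p = 0.762). The stalked chemokines thus parted, with Cxcl16 passing and Cx3cl1 not, though the difference between the genes was not tested. Of the proteases that shed or trim chemokines, Adam10, Adam17 and Dpp4, only Dpp4 passed in any comparison, in Ctr shRNA against control (10.7 ± 2.07 and 7.85 ± 0.532 FPKM, 0.38 ± 0.11, limma adjusted p = 0.0423). Dpp4, a peptidase that trims the amino end of chemokines such as CXCL10, passed in 15 of 27 alternatives, with adjusted p from 0.00121 to 0.121.

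Cxcl12, Cxcl14 and Ccl28 are homeostatic chemokines of stroma and epithelium. Cxcl12 (ENSMUSG00000061353, chromosome 6, 117168535 to 117181367, plus strand), the ligand of CXCR4 and ACKR3, had 13.6, 14.6, 15.2 and 16.9 FPKM in control. Its range was 10.4 to 19.8 (median 12.97) in Ctr shRNA and 9.54 to 17.8 (median 14.98) in the Gcgr shRNA-labelled libraries, on both sides of the control values. The differences from control were -0.12 ± 0.17 (limma adjusted p = 0.710) and -0.11 ± 0.17 (adjusted p = 0.791), and the first turned to 0.02 with sample weights.

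Cxcl14 (ENSMUSG00000021508, chromosome 13, 56288643 to 56296551, minus strand), made by epithelium of skin, gut and kidney, had the most negative difference from control of the 10 genes in both shRNA groups; Cxcl12 was the other gene with a lower mean in both. It measured 15.8, 11.4, 17.5 and 20.2 FPKM in control, 5.29 to 11.9 in Ctr shRNA (median 8.18) and 4.91 to 13.9 in the Gcgr shRNA-labelled libraries (median 5.55). Control 38 lay inside the shRNA ranges and the other 3 controls above them. The differences were -0.91 ± 0.28 (limma adjusted p = 0.0554) and -1.04 ± 0.27 (adjusted p = 0.0566), just outside the threshold. Limma voom on recovered reads placed both inside it (adjusted p = 0.0413 and 0.0359). So did leaving out Gcgr shRNA 29 (0.0336 and 0.0200) or 31 (0.0491 and 0.0392), and for Ctr shRNA against control leaving out Ctr shRNA 6 or 8 (0.0459 and 0.0473) and for the other comparison Ctr shRNA 19 (0.04998). Over all alternatives the adjusted p ranged from 0.0336 to 0.144 (8 of 27 passing) and from 0.0121 to 0.184 (6 of 27 passing).

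The Cxcl14 promoter is shown as the other one that matched the interferon motifs searched for, in a gene whose mean was lower rather than higher (chr13:56296552-56296801, minus strand). Capitals mark a gamma-activated sequence (GAS, searched as TTCNNNGAA) at -191 to -183 and an ISRE at -172 to -163.
Cxcl14: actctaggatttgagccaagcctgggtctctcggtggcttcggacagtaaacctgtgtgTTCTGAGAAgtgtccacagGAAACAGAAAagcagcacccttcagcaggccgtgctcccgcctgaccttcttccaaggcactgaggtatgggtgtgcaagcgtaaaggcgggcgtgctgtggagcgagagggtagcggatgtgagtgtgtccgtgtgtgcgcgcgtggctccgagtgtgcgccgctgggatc
The GAS letters occur in 7.02% of all promoters searched. None of the motifs was found in the windows of Cxcl12, Ccl28 and Cx3cl1 (79 bases for the last), and Cxcl16, Ccl2 and Ccl5 are named only.

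Ccl28 (ENSMUSG00000074715, chromosome 13, 119623819 to 119654359, plus strand) encodes a mucosal epithelial chemokine that binds CCR10 and CCR3. It measured 9.67, 7.59, 4.50 and 7.26 FPKM in control. Ctr shRNA ranged from 6.88 to 18.3 (median 10.7) and the Gcgr shRNA-labelled libraries from 7.45 to 25.3 (median 14.7), with library Gcgr shRNA 34 at the top. All ranges overlapped. It had the largest difference of the 10 genes between the shRNA groups, 0.43 ± 0.24 (95% interval -0.08 to 0.93, limma adjusted p = 0.737). Against control the differences were 0.52 ± 0.28 (adjusted p = 0.273) and 0.94 ± 0.27 (adjusted p = 0.0873). Without Gcgr shRNA 31 the latter had an adjusted p of 0.0290.

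**Figure D3:**
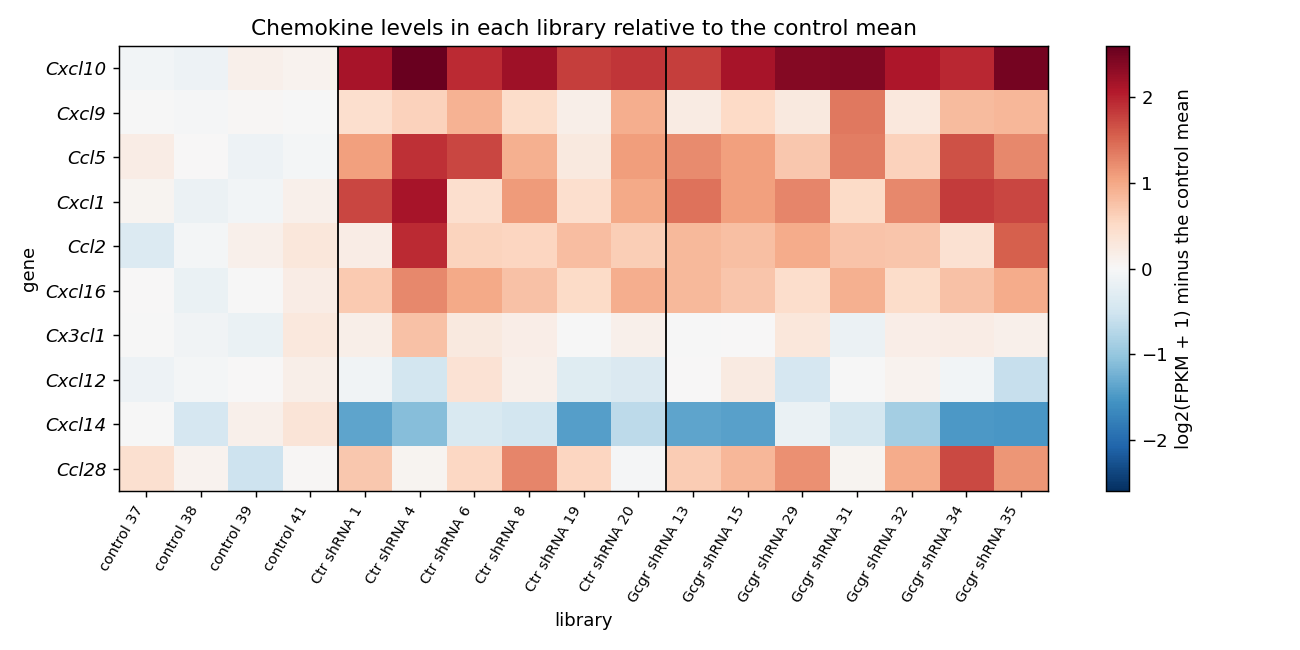
Colour shows log2(FPKM + 1) minus the control mean for each gene (rows) and library (columns; vertical lines part control, Ctr shRNA and Gcgr shRNA). Cxcl10 is red in all shRNA libraries, Cxcl14 is blue in most, and Ctr shRNA 4 has the darkest column of its group.

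Libraries of a group differed from each other in several genes at once. Ctr shRNA 4 held the highest value of all 17 libraries for 6 of the 10 genes, Cxcl10, Cxcl1, Cxcl16, Cx3cl1, Ccl2 and Ccl5, and Ctr shRNA 19 was lowest of its group for 6. The fat and urothelium transcripts of Ctr shRNA 20 went with no maximum over all libraries, and within its group this library was highest for 1 gene and lowest for 1. Without both Ctr shRNA 4 and 20, 3 of the 10 genes passed in Ctr shRNA against control, with Cxcl1 lost (limma adjusted p = 0.0816), and 6 passed in Gcgr shRNA against control. Beside them, 626 and 474 of all 13127 genes tested passed, against 994 and 268 of 13279 with every library. Without both Ctr shRNA 20 and Gcgr shRNA 31, 5 of the 10 passed in each comparison, beside 1085 and 284 of all 13092 genes tested. These exclusions were chosen after the data were seen. For 5 of the 10 genes, Cxcl10, Cxcl9, Cxcl1, Cxcl16 and Ccl5, every Ctr shRNA library was above every control, as it was for 4.71% of all tested genes. In the Gcgr shRNA-labelled libraries 6 genes did not overlap, the same 5 and Ccl2, beside 3.31%. Cxcl9, Cxcl1 and Ccl2 had no control library at an FPKM of 1, Ccl5 had 1 and Cxcl10 had 2. These genes passed the filter through the shRNA groups. Their lack of overlap therefore adds no support. Between the shRNA groups no gene was free of overlap, beside 0.203% of all genes.

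By highest Pearson correlation of log2(FPKM + 1) over the 17 libraries, the genes most like each chemokine were as follows, with the correlation after removal of group means in brackets. The genes nearest to Cxcl10 were Cdkn1a at 0.95 (0.28), Gas6 at 0.94 (0.52) and Mgmt at 0.94 (0.03), so that much of this likeness lay in the step between control and the shRNA groups. The genes nearest to Cxcl9 were Iigp1 at 0.91 (0.84), Tgtp1 at 0.89 (0.84) and Gbp2 at 0.87 (0.78), which follow it within groups too. Ccl5 lay nearest to B2m at 0.93 (0.88), H2-DMb1 at 0.93 (0.81) and Tap1 at 0.93 (0.83). Cxcl16 lay nearest to B2m at 0.95 (0.81), H2-K1 at 0.95 (0.86) and Hexa at 0.94 (0.75). B2m was therefore the gene most like both Ccl5 and Cxcl16. Cxcl1 lay nearest to Efhd2 at 0.92 (0.84) and Ccl2 to Fbl at 0.91 (0.87). Cxcl14 was most like Ddr2 at 0.86 (0.78) and Cxcl12 most like Chm at 0.85 (0.86). For Cx3cl1 the leading gene was Gm13868 at 0.86 (0.83), and Ccl28 had the weakest likeness, to Slc19a3 at 0.76 (0.63). These correlations share libraries and depth and were given no test.

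Among 25 regulators of chemokine genes, a list chosen with earlier results of these data known, 20 were tested. In Ctr shRNA against control 3.58% of all tested genes were higher and 3.91% lower. Of the 20 regulators 8 were higher and 1 lower, with a median difference of 0.32 over the list. Among those higher were Ifngr1 and Ifngr2 (the interferon gamma receptor), Irf7 and Irf9 (interferon-induced transcription factors), Tnfrsf1a (a tumour necrosis factor receptor), and Nfkb2 and Relb (subunits of non-canonical NF-kappaB); Ikbkb, a kinase of the canonical route, was lower. In the Gcgr shRNA-labelled libraries 6 of the 20 were higher than control and none lower (median 0.33), beside 1.42% and 0.595% of all genes. Between the shRNA groups none of the 20 passed (median -0.02), beside 0.0% of all genes. Irf7 had the largest rise, from 2.82 ± 0.136 FPKM in control to 13.6 ± 5.05 in Ctr shRNA (1.87 ± 0.23, limma adjusted p = 0.000198) and 14.4 ± 4.32 in the Gcgr shRNA-labelled libraries (1.97 ± 0.23, adjusted p = 0.000102). On the log2(FPKM + 1) scale of these differences Irf9 rose by 0.71 and 0.70, and Nfkb2 by 0.61 and 0.58. In the Gcgr shRNA-labelled libraries the calls of Irf9 and Nfkb2 held in 19 and 18 of 27 alternatives, and that of Ifngr2 in 10, whereas those of Irf7 held in all 27 of both comparisons. In Ctr shRNA the calls of Irf9, Nfkb2, Ifngr2, Tnfrsf1a, Ikbkb and Relb held in 27, 26, 22, 21, 21 and 16 of 27. Leaving out control 37, 38 or 39 ended those of Ifngr2, Tnfrsf1a, Ikbkb and Relb, leaving out control 37 ended that of Nfkb2, leaving out Ctr shRNA 4 ended those of Ikbkb and Relb, and leaving out Ctr shRNA 1, 6, 8 or 20 ended that of Relb.

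Ifngr1 rose by 0.37 in Ctr shRNA (limma adjusted p = 0.0484), a call that held in 6 of 27 alternatives, and by 0.47 in the Gcgr shRNA-labelled libraries (adjusted p = 0.0272, 18 of 27). The interferon genes of the list, Ifng and Ifnb1, were near the limit of detection. Ifng, which encodes interferon gamma, had 0 reads in the control group, 7 in Ctr shRNA and 3 in all of the Gcgr shRNA-labelled libraries, and Ifnb1 had 0 in all libraries.

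**Figure D4:**
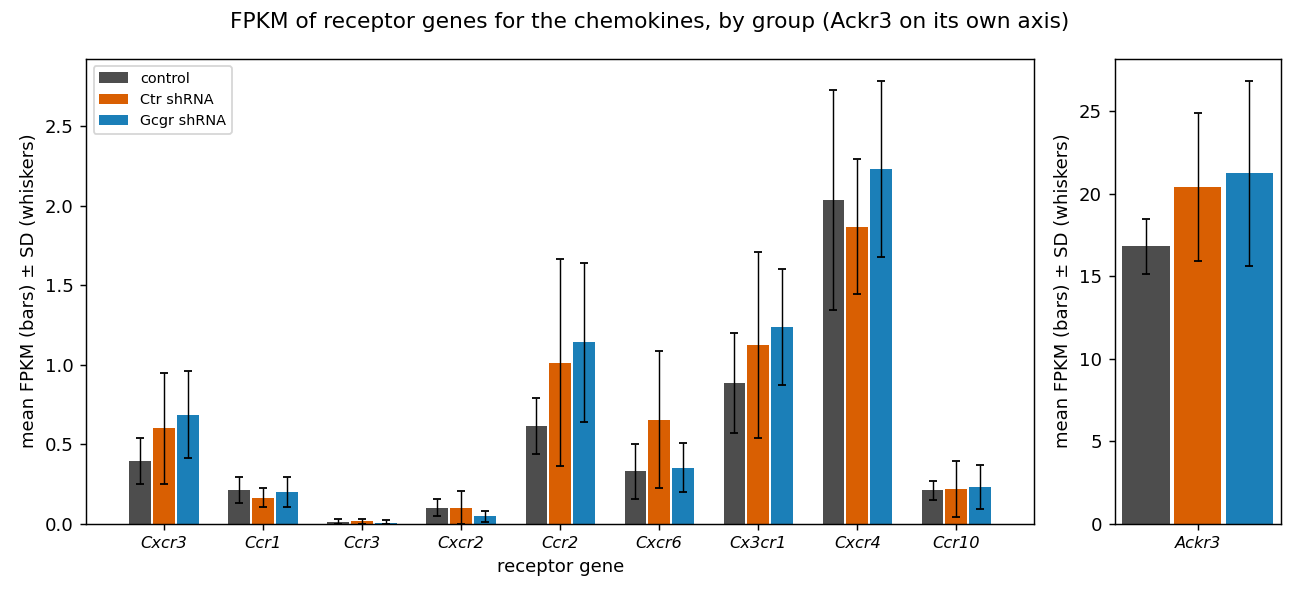
Mean FPKM (bars, axes from 0) with whiskers of 1 SD for 10 receptor genes in control (n = 4), Ctr shRNA (n = 6) and Gcgr shRNA (n = 7), with Ackr3 on its own axis. Ackr3 stands at 16.8 to 21.3 FPKM, and the next receptor, Cxcr4, at 1.87 to 2.23.

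Receptors of these chemokines were low, with a single exception. Of 23 receptor genes 4 passed the filter (Ccr2, Cxcr4, Cx3cr1 and Ackr3) and none was called in any comparison, with medians of 0.19, 0.10 and 0.27 for Ctr shRNA against control, Gcgr shRNA against Ctr shRNA and Gcgr shRNA against control. Ackr3, a scavenging receptor of CXCL12, measured 16.8 ± 1.67, 20.4 ± 4.47 and 21.3 ± 5.61 FPKM in control, Ctr shRNA and Gcgr shRNA (SD), well above Cxcr4, the signalling receptor of CXCL12, at 2.04 ± 0.692, 1.87 ± 0.426 and 2.23 ± 0.556. Cxcr3, the receptor of CXCL9 and CXCL10, had 0.395 ± 0.143, 0.600 ± 0.350 and 0.686 ± 0.273 FPKM, with overlapping ranges. Ccr2 was at 0.616 ± 0.177, 1.01 ± 0.650 and 1.14 ± 0.501 FPKM, and Cx3cr1 at 0.886 ± 0.317, 1.12 ± 0.588 and 1.24 ± 0.366. Cxcr2, on which CXCL1 acts, was at most 0.288 FPKM in any library. Cxcr6 and Ccr10 had group means between 0.211 and 0.653 FPKM.

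Of 29 other chemokine ligands in the table, 5 passed the filter (Ccl6, Ccl9, Ccl12, Ccl25 and Pf4) and none was called in any comparison (medians 0.24, 0.05 and 0.46 in the order used for the receptors). Ccl6, the most abundant of them, had 1.73 ± 0.668, 2.23 ± 0.853 and 2.77 ± 0.977 FPKM, and Pf4 1.18 ± 0.308, 1.26 ± 0.346 and 1.34 ± 0.613. Cxcl2, a neighbour of Cxcl1 that shares its receptor, had 1 control read, 42 in Ctr shRNA and 20 in the Gcgr shRNA-labelled libraries.

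Markers of cells that carry these receptors or make these ligands are given as levels, and their part in the chemokine differences was not tested. Of 14 T and natural killer cell markers, 2 passed the filter and none was called in any comparison; their summed FPKM was 2.32 to 3.69 in control, 3.22 to 11.3 in Ctr shRNA and 4.10 to 8.27 in the Gcgr shRNA-labelled libraries. Trac, the T cell receptor alpha constant gene, had 0.979 ± 0.434, 1.73 ± 0.391 and 2.02 ± 0.580 FPKM, and Nkg7, of cytotoxic granules, 0.458 ± 0.265, 1.36 ± 0.631 and 1.28 ± 0.442. Of 12 macrophage markers 9 were tested. In Ctr shRNA Cd68 and Lyz2 were higher and Csf1r lower than in control, beside 3.58% and 3.91% of all tested genes. In the Gcgr shRNA-labelled libraries Lyz2 and Fcgr1 were higher, beside 1.42% of all tested genes. Cd68 held in 20 and Fcgr1 in 12 of 27 alternatives. Fcgr1 was at most 0.505 FPKM in control and passed the filter through the shRNA groups. Summed levels of the macrophage markers were 72.7 to 97.3, 73.9 to 179 and 102 to 175 in control, Ctr shRNA and Gcgr shRNA. Lyz2 (lysozyme) went from 13.8 ± 3.14 to 36.4 ± 10.6 and 36.0 ± 7.92 FPKM, while Csf1r, the receptor of a macrophage growth factor, went from 15.5 ± 1.07 to 7.71 ± 2.08 and 10.6 ± 1.4, so in Ctr shRNA these markers moved in opposite directions. Of 6 neutrophil markers 3 were tested and none was called; sums were 3.41 to 27.2, 0.848 to 9.89 and 2.40 to 18.5, Mpo was at 0 in all control libraries and Ly6g at 0 in all of Ctr shRNA.

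Tubule markers moved too. In Ctr shRNA against control, 2 of 6 proximal tubule, 3 of 4 thick ascending limb, 1 of 3 distal convoluted tubule and 3 of 5 collecting duct markers were lower, and none was higher. Over all tested genes 3.91% were lower in that comparison. With a library left out, the marker calls numbered 0 to 5, 1 to 3, 1 and 2 to 4 in the same order. In the Gcgr shRNA-labelled libraries the only calls among the tubule markers were 2 lower collecting duct markers, beside 0.595% of all tested genes lower. Both calls were lost without control 37, 38 or 39, and 1 was lost without control 41 or Gcgr shRNA 13 or 35. Markers of endothelium (7 tested), fibroblasts and pericytes (6), B and plasma cells (1), podocytes (3), fat (4) and urothelium (3) had no call in any comparison. The part of these shifts in the chemokine differences was not tested.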

How the data were processed

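RNA of 17 mouse kidney samples was extracted with Trizol and sequenced after a SMARTer library preparation, per the labels' protocols. Per the file headers, the values the authors deposited are FPKM in 1 table, which also lists gene length and position. The submitters' processing notes list GRCm38 and mm10, names of the same build, with aligner, counter, annotation release and strandedness not given in the sources used here. The table held 42794 complete gene lines, and 1 incomplete line was left out. FPKM times gene length, checked up to 200 times the smallest step of a library, came out whole in 100% of cases (tolerance 0.05 of a step), which gave recovered reads and depth.

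FPKM was transformed to log2(FPKM + 1). The 13279 genes that reached an FPKM of 1 in 4 or more libraries were fitted with a mean per group in limma 3.58.1 (limma-trend, R 4.3.3), with Benjamini-Hochberg adjustment over all of them and a threshold of 0.05; the adjusted p-values are from this test unless another is named. The fit was tested on simulated data of independent values. Known changes were set only in genes above a low level, so changes in low genes were not covered. Gcgr was tested by exact permutation.

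Alternatives were a pseudocount of 0.1, no filter, a filter on mean FPKM, rescaling to the same total or median, sample weights, a fit of the 2 groups compared, limma voom on the recovered reads, and the omission of every library by turns. Omitting 2 libraries at once was added after seeing the data. The members and lists (other chemokine ligands, receptors, regulators, proteases and cell type markers) were chosen with earlier results of these data known. All 10 chemokines are named; of each list, up to 5 genes that pass, by smallest p, or the 2 with the highest mean where none passes, may be named with values, as may the receptors of the 10. For each chemokine the 3 genes with the highest Pearson correlation were taken, and the leading 1 or all 3 are given. Promoters came from a RefSeq table (GRCm38.p6), in which 7 of the 10 genes matched. Some genes of the lists are counted but not reported here by name.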

Additional observations from a re-analysis of the deposited data

Results flagged for a closer look

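Dixon's test was run in 75 groups of samples (the chemokine genes, Gcgr and regulators and other named genes, each in 3 groups). In 5 of them a library lay far from the rest of its group. By chance about 1 in 20 would hold one, so the count is near the share that chance gives. Cx3cl1 was at 43.29 FPKM in Ctr shRNA 4, with the next library at 30.11. Ccl2 was at 4.548 FPKM in the same library, with the next at 1.507, and at 3.223 in Gcgr shRNA 35, with the next at 1.803. Ctr shRNA 4 was thus flagged for 2 chemokines and was also the highest of all 17 libraries for Cxcl10, Cxcl1, Cxcl16 and Ccl5. Ifngr1 was low in Ctr shRNA 19, at 9.637 FPKM with the next at 14.0, and this library was the lowest of its group for 6 of the 10 chemokines. Irf7 was at 2.616 FPKM in control 39, with the next at 2.868, a gap that is large only against the narrow range of the other controls.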

How the results depend on the processing

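No paired analysis was possible because the library numbers in the titles are not shared between groups. Cxcl10 and Cxcl16 in both comparisons with control, and Ccl5 in Ctr shRNA against control, passed in every alternative run. In Ctr shRNA against control, 7 chemokines passed with sample weights and 3 to 6 with a library left out. For Gcgr shRNA against control 2 passed without a filter, 8 with sample weights and 2 to 6 with a library left out. No chemokine passed between the shRNA groups in any alternative. Over the whole table, genes passing in Ctr shRNA against control numbered 597 without a filter, 2087 with sample weights, 626 without both Ctr shRNA 4 and 20, and 456 to 1264 with a library left out, against 994. In Gcgr shRNA against control they numbered 155 without a filter, 1070 with sample weights, 444 in a fit of the 2 groups, 474 without both Ctr shRNA 4 and 20, and 103 to 348 with a library left out, against 268. Between the shRNA groups they numbered 1 with a pseudocount of 0.1, 1 in a fit of the 2 groups, and 0 to 3 with a library left out. The causes of these shifts were not tested.

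Signs turned only for small differences. Cxcl12 in Ctr shRNA against control became 0.020 with sample weights and 0.028 without both Ctr shRNA 4 and 20. Between the shRNA groups Cxcl12 became -0.029 rescaled to the same total, -0.10 with sample weights, -0.011 with voom, -0.14 without both Ctr shRNA 4 and 20 and -0.053 without both Ctr shRNA 20 and Gcgr shRNA 31, with -0.059 to 0.11 when a library was left out. In the same comparison Cxcl9 became -0.00575 rescaled to the same total and -0.0058 with voom (-0.10 to 0.10 with a library left out), Cxcl16 0.0052 without both Ctr shRNA 4 and 20, and Ccl5 0.058 with sample weights and 0.12 without both Ctr shRNA 4 and 20 (-0.23 to 0.10 with a library left out). Ccl2 ran from -0.047 to 0.30 with a library left out. Cxcl9 had fewer alternatives, since it failed some filters. Depth limits Cxcl9, Cxcl1, Ccl2 and Ccl5, which rested on 27 to 50 reads over the 4 control libraries.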
